A study of Homo sapiens with 10 samples.

Results

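The Polycomb and DNA methylation repressors described here are 10 genes, EZH2, EED, SUZ12, BMI1, CBX2, CBX7, DNMT1, DNMT3A, DNMT3B and UHRF1. They were taken by name from a count table of 61587 genes, in which each symbol matched 1 Ensembl identifier, and all 10 passed the filter on low counts that left 19006 genes for testing. Counts came from bulk poly(A) RNA-seq of RPTEC/TERT1, a human renal proximal tubular epithelial line kept in culture by introduced telomerase. The irradiated group held 5 samples given 10 Gy of gamma radiation from a caesium source, and the control group held 5 mock-irradiated samples, with RNA collected on day 7 in both. Replicate numbers 1 to 5 occur in both groups and pair the samples. As a model this is 1 immortalised line at 1 dose and 1 time, and every cell in both groups carries the telomerase transgene. The cell line label runs from RPTEC/TERT1 to RPTEC/TERT10, a different ending for each sample, while the series description and the study's methods name RPTEC/TERT1 alone, so the samples were taken as 1 line.

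Polycomb proteins keep developmental and cell cycle genes silent through 2 kinds of complex. Polycomb repressive complex 2 (PRC2), built on EZH2 or its relative EZH1 with EED and SUZ12, places methyl groups on lysine 27 of histone H3. Polycomb repressive complex 1 (PRC1) reads that mark through a CBX protein and places ubiquitin on histone H2A with the help of a PCGF protein such as BMI1. DNA methylation is set at new sites by DNMT3A and DNMT3B and is copied after each round of DNA replication by DNMT1, which UHRF1 brings to newly made DNA. In dividing epithelial cells these systems are known for silencing the INK4 cell cycle inhibitors, the HOX genes outside their domain, and germline genes.

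Total counts on genes ranged from 78081911 to 131555873 in controls and from 66269311 to 101594948 in irradiated samples. Controls 1 and 3 stood apart from the other 3 controls in markers of dividing cells, with a mean over 18 proliferation genes of 4.51 and 4.43 log2 CPM against 5.72 to 5.77, while irradiated samples lay between 3.65 and 4.13. CDKN1A, the p53 target that encodes the cell cycle inhibitor p21, checked the irradiation labels and ranged from 66.7 to 208 CPM in controls and from 584 to 768 CPM in irradiated samples, with the highest control value in control 3. The tubule markers PAX8 and KRT8 were expressed at 468 CPM or more in every sample and EPCAM at 253 CPM or more, but LRP2, a defining receptor of the mature proximal tubule, had 17 counts in the whole table. Markers of other cells, 5 per list, were low but summed higher after irradiation with no overlap between groups. Leukocyte markers summed to between 0.55 and 0.84 CPM in controls and between 0.87 and 1.34 CPM in irradiated samples, and endothelial markers to between 1.29 and 2.40 CPM and between 4.17 and 6.08 CPM. The fibroblast and muscle markers, mostly COL1A1, summed to between 19.8 and 27.1 CPM in controls and between 33.7 and 45.6 CPM in irradiated samples. By the test described next, 1 of 2 tested leukocyte markers, 2 of 3 endothelial and 3 of 3 fibroblast and muscle markers were higher and 0 were lower. Of all genes tested, 23.9% were higher and 22.7% lower by that test, and 14.6% lay wholly higher after irradiation. The tubule list held 12 markers, of which 11 were tested, with 1 higher, 3 lower and 7 without a call. No gene of these lists was at 0 over all samples, and their part in the results below was not tested.

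Expression fell after irradiation for 8 of the 10 genes, rose for BMI1 and did not pass the test for CBX7. The test was edgeR's quasi-likelihood test with replicate number as a block and Benjamini-Hochberg adjustment over all genes tested, at an adjusted p of 0.05. By the same rule 22.7% of all genes tested were lower and 23.9% were higher, 46.6% in all. The median log2 fold change was -0.59 over the 10 genes and -0.01 over all 19006. Values of the 5 irradiated samples lay wholly below those of the 5 controls for 7 genes and wholly above them for BMI1, where 12.0% and 14.6% of all genes tested showed such a separation (26.7% in either direction). In bulk RNA, fewer cells expressing a gene and less of its RNA per cell cannot be told apart. Nothing in the labels says that the replicates are separate cultures beyond their numbers, so the p-values measure the spread between these samples, which may be technical.

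**Figure D1:**
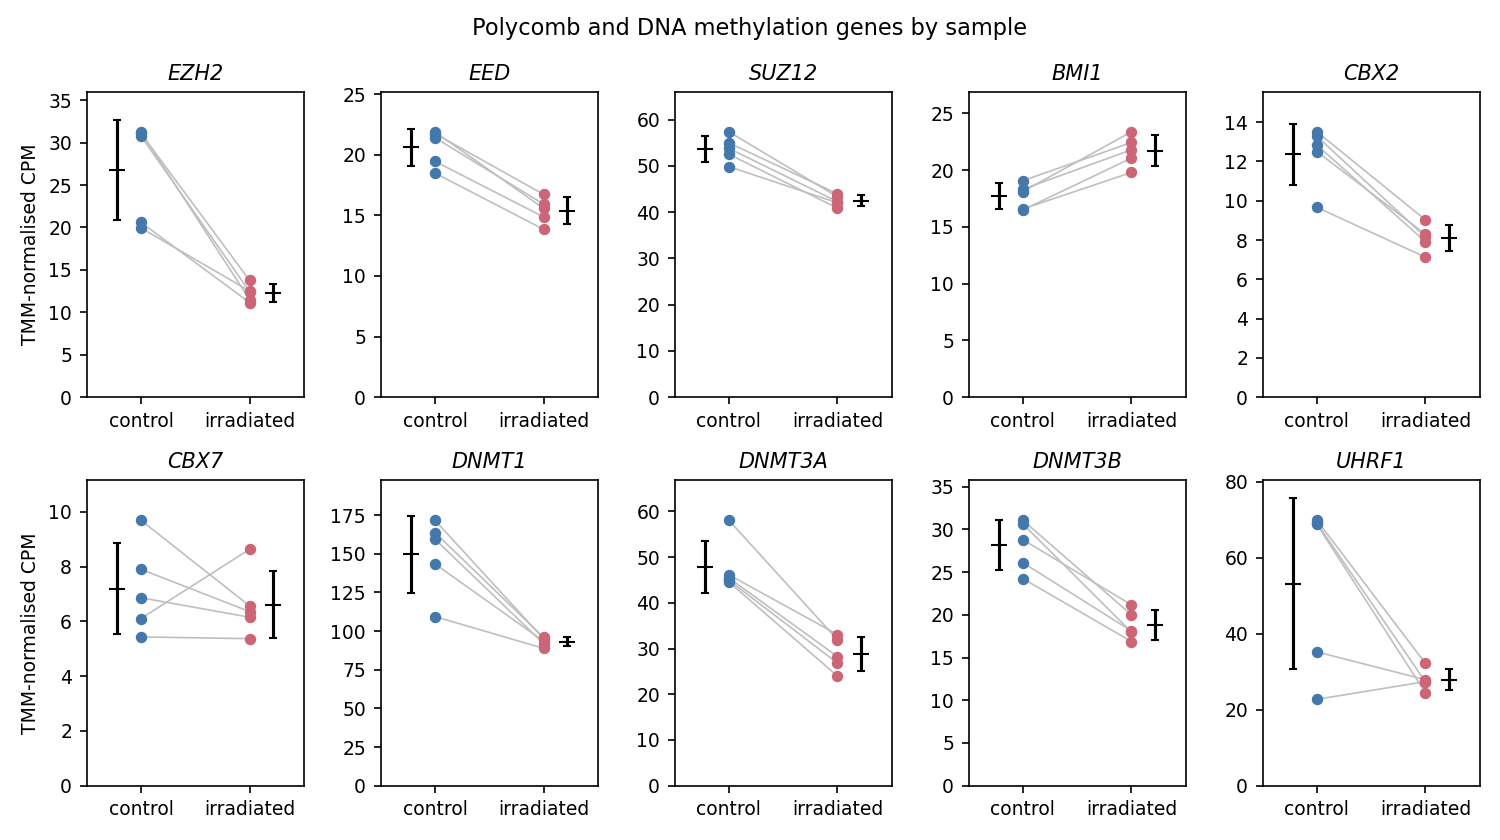
Expression of the 10 genes in TMM-normalised CPM (vertical axes, each starting at 0) in 5 control and 5 irradiated samples, where points are samples, grey lines join samples with the same replicate number, and the black bars beside them give the mean and SD. EZH2 went from 26.7 to 12.3 CPM on average, BMI1 is the gene whose irradiated points all lie above the controls, and CBX7 and UHRF1 are those whose groups overlap.

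Promoter sequence is described first, and its part in the changes was not tested. The RefSeq promoter table for GRCh38.p14, with 250 bases before and 50 after each start site, held 18 windows for 9 of the members. A search for letters bound by E2F, the transcription factors that drive genes of DNA replication, found a match in 5 windows of EZH2, SUZ12, DNMT1 and UHRF1. The search used TTTCCCGC, TTTGGCGC, TTTCGCGC and TTTGCCGC on either strand, and 3.31% of all 35116 windows held at least 1 of them. The matched stretches are printed below in 5′ to 3′ order on the strand of the gene with the E2F letters in capitals, and for BMI1, the member that rose, a stretch is shown in which the capitals mark SP1 boxes (GGGCGG) because its windows held no E2F letters. EZH2, chr7:148884272-148884301 on the minus strand, runs from base -10 to base 20 around the start. SUZ12, chr17:31936807-31936836 on the plus strand, runs from -200 to -171, before the annotated gene. DNMT1, chr19:10194937-10194966 on the minus strand, runs from -13 to 17, and UHRF1, chr19:4909476-4909505 on the plus strand, from -25 to 5. A further start of UHRF1 has its match at chr19:4909973-4910002 on the plus strand, from -171 to -142. BMI1, chr10:22321044-22321073 on the plus strand, runs from -55 to -26. The stretches of EZH2, DNMT1 and the first UHRF1 start lie in exons of at least 1 GENCODE transcript, and the other 3 overlap no exon.
EZH2: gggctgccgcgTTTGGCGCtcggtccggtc
SUZ12: cgacccctaatTTTCCCGCgaattcagttc
DNMT1: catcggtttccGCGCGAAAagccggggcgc
UHRF1: gccgagttttcGCGGGAAAaaaatcagagc
UHRF1, further start: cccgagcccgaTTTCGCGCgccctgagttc
BMI1: ggGGGCGGcggggggaggGGGCGGGCGGac

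The E2F letters of EZH2 begin at base 2 of the transcript, those of DNMT1 span the start from base -2 to base 6, and those at the first UHRF1 start end at base -7. Members without these letters in their windows also fell, among them EED, DNMT3A and DNMT3B. SP1 boxes were not particular to BMI1. Windows of EZH2, SUZ12, DNMT3A, UHRF1 and CBX7 held them too, and those of EED, DNMT1 and DNMT3B held none. SP1 boxes occurred in 72.2% of the member windows and in 45.0% of all windows, the letters CCAAT in 38.9% and 34.6%, and TTTGAA or TTCGAA, the cell cycle homology element, in 11.1% and 16.4%, each on either strand. Member windows had a median of 36 CpG sites, against 14 in all windows, while the single DNMT3B window had 3. Some members have several windows, and some windows of DNMT3A and of UHRF1 overlap, so these shares and medians do not weigh genes equally. A letter match is a description of the sequence and does not show binding.

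EZH2, the methyltransferase subunit of PRC2, had the largest fitted change of the 10 genes (chromosome 7 of GRCh38, 148807257 to 148884321). It stood at 19.9, 31.3, 20.6, 31.1 and 30.8 CPM in controls 1 to 5 and at 12.5, 11.5, 11.2, 13.8 and 12.4 CPM in irradiated samples 1 to 5. Every irradiated sample was below every control, and controls 1 and 3 were the lowest controls. The mean fell from 26.7 ± 5.9 to 12.3 ± 1.0 CPM (mean ± SD, n = 5 per group), and the log2 fold change was -1.10 (SE 0.11, edgeR adjusted p = 0.000224). EZH2 was the only member called lower by more than 2-fold, a rule that 4.06% of all genes tested met. In pairs 2, 4 and 5 alone its log2 fold change was -1.32. Those pairs leave out controls 1 and 3, so a larger fall is built into that choice.

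The partners of EZH2 in the PRC2 core fell by less. EED, which binds the methylated lysine and stimulates the enzyme (chromosome 11, 86201212 to 86278813), stood at 19.5, 21.7, 18.5, 21.4 and 21.9 CPM in controls and at 14.9, 16.7, 13.9, 15.9 and 15.6 CPM in irradiated samples. The groups did not overlap, and the log2 fold change was -0.42 (SE 0.05, edgeR adjusted p = 0.000374). SUZ12, the scaffold that PRC2 needs for stability (chromosome 17, 31937007 to 32001038), stood at 49.8, 53.8, 52.5, 55.0 and 57.3 CPM in controls and at 42.0, 42.3, 40.8, 43.9 and 43.3 CPM in irradiated samples. Its groups did not overlap either, and the log2 fold change was -0.34 (SE 0.04, edgeR adjusted p = 0.000491), the smallest fall among the 8 genes that were called lower. SUZ12 was even among samples, with a coefficient of variation of 5.22% in controls and 2.83% in irradiated samples, compared with 22.1% and 8.34% for EZH2.

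The PRC1 members went in different directions. BMI1, a PCGF subunit of canonical PRC1 best known for repressing the INK4 locus (chromosome 10, 22321099 to 22331484), was the only member that rose. It stood at 16.5, 18.3, 16.6, 18.1 and 19.1 CPM in controls and at 21.1, 21.8, 19.8, 23.4 and 22.4 CPM in irradiated samples. The lowest irradiated value, in sample 3, was still above the highest control, in sample 5. The mean went from 17.7 ± 1.1 to 21.7 ± 1.4 CPM (mean ± SD, n = 5 per group), which is 122% of the control level, and the log2 fold change was 0.29 (SE 0.05, edgeR adjusted p = 0.00219). A readthrough gene, COMMD3-BMI1, shares 22.8% of the exon bases of BMI1 on the same strand, so reads from that stretch could be left out of the BMI1 count.

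CBX2 and CBX7 encode alternative chromodomain subunits, which tether PRC1 to methylated histone H3. CBX2 (chromosome 17, 79778148 to 79787983) stood at 12.5, 13.3, 9.66, 13.5 and 12.8 CPM in controls and at 8.30, 8.15, 7.13, 9.03 and 7.92 CPM in irradiated samples. Control 3 was the lowest control and still lay above the highest irradiated sample, and the log2 fold change was -0.60 (SE 0.07, edgeR adjusted p = 0.000313). CBX7 (chromosome 22, 39120167 to 39152680) stood at 7.90, 6.10, 9.69, 5.43 and 6.86 CPM in controls and at 6.36, 8.63, 6.57, 5.37 and 6.15 CPM in irradiated samples. The groups overlapped over most of their range, with control 3 the highest of all 10 samples and irradiated sample 2 next to it. The difference did not pass the test (log2 fold change -0.11, SE 0.14, edgeR adjusted p = 0.555), and its sign turned without replicate 3 (0.0085) and in pairs 2, 4 and 5 alone (0.094). A long non-coding RNA on the opposite strand covers 17.9% of the exon bases of CBX7, and counts that ignore strand can lose reads there.

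All 3 DNA methyltransferases fell, with no overlap between groups. DNMT1, which copies methylation at replication (chromosome 19, 10133342 to 10231286), stood at 109, 172, 143, 164 and 159 CPM in controls and at 88.8, 95.1, 93.5, 96.0 and 91.9 CPM in irradiated samples. Control 1 was the lowest control, and the coefficient of variation was 16.5% in controls and 3.03% in irradiated samples. The log2 fold change was -0.67 (SE 0.08, edgeR adjusted p = 0.000475) and -0.82 in pairs 2, 4 and 5 alone. Those pairs leave out controls 1 and 3, the lowest controls for DNMT1, so a larger fall is built into that choice. DNMT3A, a de novo enzyme (chromosome 2, 25227855 to 25342590), stood at 58.1, 46.1, 44.5, 44.9 and 45.4 CPM in controls and at 31.9, 33.1, 24.0, 26.8 and 28.2 CPM in irradiated samples. Control 1 was high here, unlike for DNMT1, and the irradiated samples spread more widely than the other 4 controls. The mean fell from 47.8 ± 5.8 to 28.8 ± 3.7 CPM (mean ± SD, n = 5 per group), and the log2 fold change was -0.73 (SE 0.07, edgeR adjusted p = 0.000123).

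DNMT3B, the other de novo enzyme (chromosome 20, 32762385 to 32809359), stood at 28.8, 24.2, 26.1, 30.6 and 31.1 CPM in controls and at 21.2, 16.9, 18.1, 18.0 and 19.99 CPM in irradiated samples. The lowest control, in sample 2, belongs to the pair whose irradiated sample was also the lowest. The log2 fold change was -0.58 (SE 0.06, edgeR adjusted p = 0.000211). Within the 5 pairs the fall of DNMT3B ranged from -0.77 to -0.44 on the log2 scale and that of DNMT3A from -0.89 to -0.48.

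UHRF1, the adaptor that recognises half-methylated DNA behind the replication fork (chromosome 19, 4903080 to 4962154), varied more than any other member among controls, with a coefficient of variation of 42.4%. It stood at 35.2, 68.8, 22.7, 69.9 and 69.1 CPM in controls 1 to 5 and at 27.9, 24.4, 27.4, 32.2 and 27.3 CPM in irradiated samples 1 to 5. Control 3 lay below all 5 irradiated samples, so the groups overlapped, and UHRF1 was higher in the irradiated sample of pair 3 and lower in the other 4 pairs. The mean was 53.1 ± 22.5 CPM in controls and 27.8 ± 2.8 CPM in irradiated samples (mean ± SD, n = 5 per group), and the log2 fold change was -0.81 (SE 0.25, edgeR adjusted p = 0.0298). This call was lost without replicate 2, 4 or 5, with edgeR adjusted p of 0.0825, 0.0962 and 0.11. Leaving out replicate 3 gave a log2 fold change of -1.07, and in pairs 2, 4 and 5 alone it was -1.33. The first leaves out control 3 and the second controls 1 and 3, the lowest controls. Larger falls are built into these choices and lend the call no support.

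Controls 1 and 3 were both low for EZH2 and UHRF1, as they were for the proliferation marker MKI67. MKI67 stood at 76.7, 220.4, 60.4, 233.9 and 216.7 CPM in controls and at 26.2, 15.3, 25.4, 29.6 and 23.5 CPM in irradiated samples. EZH2 in controls 1 and 3 lay 0.39 and 0.35 below the control mean of log2 CPM, and UHRF1 lay 0.46 and 1.09 below it. DNMT1 was 0.43 below its control mean in control 1, and CBX2 was 0.34 below its own in control 3. SUZ12 in these samples was within 0.11 of its control mean, DNMT3B within 0.10, and DNMT3A in control 1 was 0.29 above its mean. Relative to their control means, EED was at -0.08 and -0.15 in controls 1 and 3, and BMI1, the member that rose, at -0.10 and -0.09. Controls 1 and 3 were thus also the lowest controls for EED, BMI1, SUZ12, DNMT1 and CBX2, but not for CBX7, DNMT3A or DNMT3B. Of the 18 proliferation markers, 15 were lower after irradiation (83.3%) and 0 were higher (median log2 fold change -1.18). Over all genes tested, 22.7% were lower and 23.9% were higher. Their part in the values of the members was not tested.

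**Figure D2:**
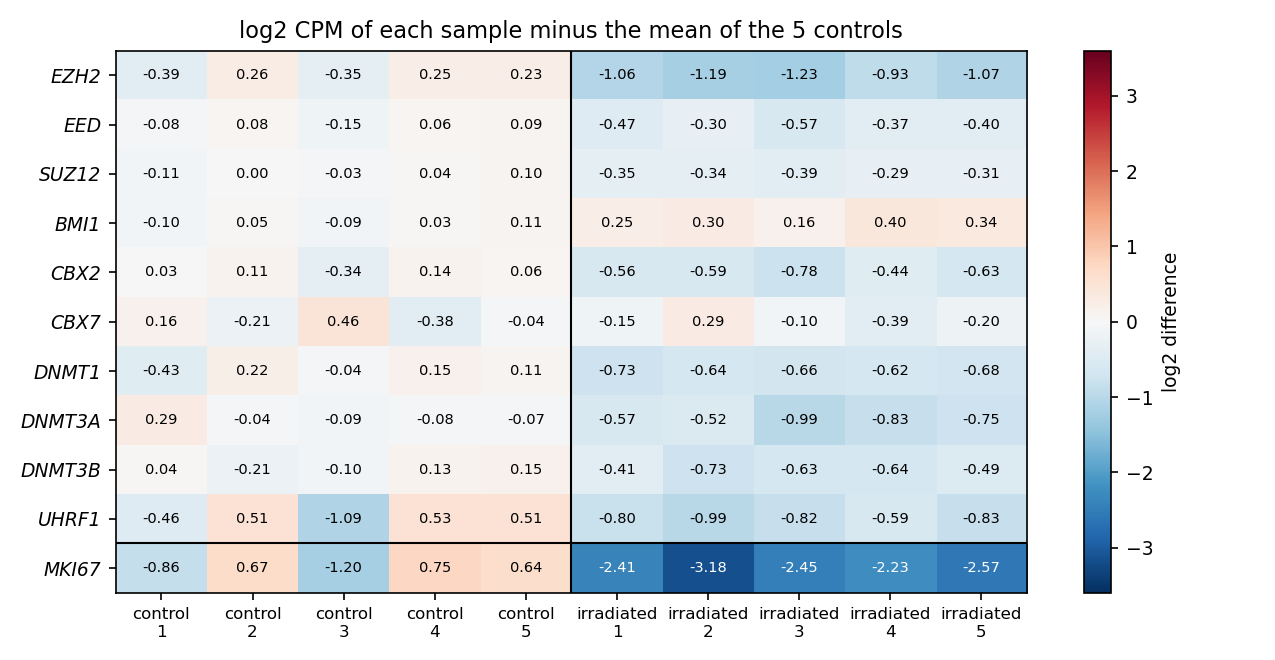
Difference of log2 CPM in each of the 10 samples (columns) from the mean of the 5 controls, for the 10 members and, under the line, MKI67 (rows), with red above and blue below that mean. EZH2, UHRF1 and MKI67 share low values in controls 1 and 3, at -0.39 and -0.35, -0.46 and -1.09, and -0.86 and -1.20. SUZ12 also has its lowest controls there, but at -0.11 and -0.03.

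Levels of different genes were compared as CPM per kilobase of the Ensembl canonical transcript. DNMT1 was the most abundant member in both groups, at 28.4 ± 4.7 in controls and 17.6 ± 0.5 in irradiated samples (mean ± SD, n = 5 per group). In controls it was followed by UHRF1 (13.6), SUZ12 (11.9), EZH2 (10.1) and EED (9.87), whose sample ranges overlapped from each to the next. DNMT3B (6.50), DNMT3A (5.08) and BMI1 (5.01) came after these, also with overlapping ranges, and CBX2 (2.67) and CBX7 (1.75) were the lowest. In irradiated samples the order per kilobase became DNMT1, SUZ12 (9.45), EED (7.37), UHRF1 (7.14), BMI1 (6.13), EZH2 (4.63), DNMT3B (4.34), DNMT3A (3.06), CBX2 (1.75) and CBX7 (1.61). Neighbours whose ranges overlapped after irradiation were EED and UHRF1, UHRF1 and BMI1, EZH2 and DNMT3B, and CBX2 and CBX7. The order depends on the length used. Per kilobase of all annotated exons, a length chosen after seeing the data, UHRF1 (10.3) stood above DNMT1 (9.72) and BMI1 (4.03) above EZH2 (2.48) in controls. In irradiated samples SUZ12 (6.48) then came before DNMT1 (6.05), and BMI1 (4.94) was again above EZH2 (1.14).

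Balance between a member and a close relative or partner was compared within samples, as a log2 ratio of the CPM values, which does not depend on how libraries are scaled. There were 6 such ratios, tested by an exact two-sided permutation test over the 252 arrangements of 10 samples into 5 and 5 with Benjamini-Hochberg adjustment over the 6. The ratio of EZH2 to EZH1, the alternative PRC2 enzyme that is abundant in resting cells, was -0.28 ± 0.54 in controls and -1.44 ± 0.23 in irradiated samples (mean ± SD, n = 5 per group; difference -1.16, exact p = 0.00794, adjusted p = 0.0159). That of EZH2 to SUZ12 differed by -0.76 and that of BMI1 to PCGF2 by 0.59, both with the same exact p and adjusted p. In these 3 ratios the groups did not overlap and all 5 pairs went the same way, and the p is the smallest that 252 arrangements can give. With the pairing kept, by exact sign flips within replicate pairs, the adjusted p was 0.125 for each of the 3 and none passed the threshold, which 5 pairs cannot reach since their smallest p is 0.0625. The 61.5% of PCGF2 exon bases that lie under exons of the opposite strand can lower its counts, which shifts the level of that ratio in all samples.

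The remaining 3 ratios overlapped between groups. CBX2 to CBX7 differed by -0.49 (exact permutation p = 0.111, adjusted p = 0.162), with pair differences from -1.20 to 0.12. UHRF1 to UHRF2, its relative, differed by -0.63 (exact permutation p = 0.135, adjusted p = 0.162), with pair differences from -1.32 to 0.46. DNMT3B to DNMT3A differed by 0.15 (exact permutation p = 0.294, adjusted p = 0.294), with pair differences from -0.04 to 0.42. With 1 replicate left out CBX2 to CBX7 ranged from -0.65 to -0.31 (the latter without replicate 2), UHRF1 to UHRF2 from -0.90 to -0.45, and DNMT3B to DNMT3A from 0.088 without replicate 1 (0.10 without replicate 3) to 0.20. None of these 3 passed the test, which does not show that the ratios were equal.

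**Figure D3:**
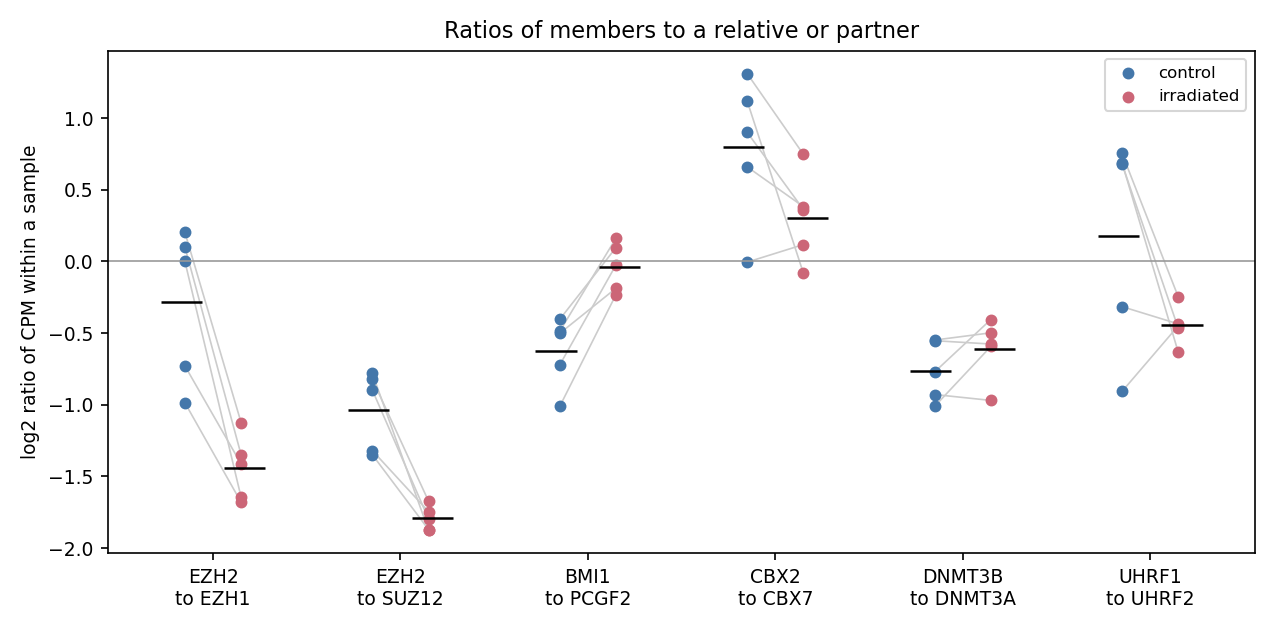
log2 ratio of CPM between a member and a relative or partner within each sample (vertical axis) for 6 gene pairs, with control points in blue, irradiated points in red, grey lines joining replicate numbers and black bars at group means. The first 3 ratios separate the groups, with differences of -1.16, -0.76 and 0.59, and the other 3 do not.

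Of 10 other genes of PRC2, 9 were tested, with 0 higher, 2 lower and 7 without a call (median log2 fold change -0.03). The lower share was 22.2%, beside 22.7% of all genes tested. PHF19, a Polycomb-like protein that recruits PRC2 to CpG-rich DNA, stood at 17.5, 40.0, 19.2, 38.4 and 37.2 CPM in controls and between 13.0 and 16.5 CPM in irradiated samples (log2 fold change -0.98, SE 0.20, edgeR adjusted p = 0.00581). Its controls 1 and 3 were low, as for EZH2. RBBP7, a histone-binding subunit, fell by 0.28 on the log2 scale (SE 0.05, edgeR adjusted p = 0.00265). EZH1 had a log2 fold change of 0.07 (SE 0.06, edgeR adjusted p = 0.433) that turned to -0.011 with library size as scaling, and it was called higher in pairs 2, 4 and 5 alone (0.15, edgeR adjusted p = 0.0232).

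All 19 PRC1 partners were tested, with 4 higher, 9 lower and 6 without a call (median log2 fold change -0.14). That is 21.1% higher and 47.4% lower, beside 23.9% and 22.7% of all genes tested. PHC2, a Polyhomeotic subunit that lets PRC1 polymerise, rose by 0.41 (SE 0.04, edgeR adjusted p = 0.000262), YAF2 and RYBP, alternative subunits of variant PRC1, by 0.31 and 0.23, and the chromodomain gene CBX6 by 0.24. SCMH1, a further PRC1 component, PCGF6, a PCGF of variant PRC1, and BCOR, a partner of PCGF1, each had a log2 fold change of -0.39. PCGF2, the closest relative of BMI1, stood at 27.2, 26.0, 33.5, 25.4 and 25.2 CPM in controls and at 21.4, 24.8, 23.2, 20.9 and 21.0 CPM in irradiated samples. It fell while BMI1 rose, with a log2 fold change of -0.30 (SE 0.07, edgeR adjusted p = 0.00879). CBX8 had a log2 fold change of 0.04 and did not pass the test (edgeR adjusted p = 0.652), and its sign turned with library size as scaling (-0.038). The count of lower partners was 5 without replicate 5.

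Partners and readers of DNA methylation numbered 14, of which 13 were tested, with 2 higher, 6 lower and 5 without a call (median log2 fold change -0.18). The higher share was 15.4% and the lower share 46.2%, against 23.9% and 22.7% over all genes. CDCA7, which with the remodeller HELLS opens chromatin for maintenance methylation, stood at 11.2, 27.2, 10.4, 25.2 and 23.3 CPM in controls and between 8.47 and 11.6 CPM in irradiated samples (log2 fold change -0.82, SE 0.16, edgeR adjusted p = 0.00494). Controls 1 and 3 were again low and fell inside the irradiated range. MBD2, a reader that joins methylated DNA to a histone deacetylase complex, fell by 0.51 on the log2 scale (SE 0.05, edgeR adjusted p = 0.000148) with no overlap between groups. MBD3 fell by 0.25 on the log2 scale (edgeR adjusted p = 0.0147) and lost its call without replicate 1, 4 or 5 (0.0517, 0.0628 and 0.0675) and without the replicate block (0.0748). UHRF2 had a log2 fold change of -0.18, and ZBTB38 and ZBTB4, zinc finger readers of methylated DNA, rose by 0.31 and 0.27. DNMT3L, the cofactor of de novo methylation in germ cells, had 1 count in the whole table.

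Of 12 genes that remove these marks or help to do so, 11 were tested, with 3 higher, 6 lower and 2 without a call (median log2 fold change -0.13). The shares were 27.3% higher and 54.5% lower, again beside 23.9% and 22.7% of all genes tested. TET1 and TET2, which oxidise methylated cytosine, had log2 fold changes of -0.52 and -0.34, and MYSM1, a histone H2A deubiquitinase, of -0.38, each passing the test. ASXL2, a cofactor of the deubiquitinase BAP1, rose by 0.25 and TDG, the glycosylase that excises oxidised methylcytosine, by 0.24. TET3 passed narrowly at 0.19 (SE 0.06, edgeR adjusted p = 0.0403), and this call was lost in 9 of 14 alternatives, among them the fit without the replicate block (0.27) and those without replicate 1, 3, 4 or 5 (0.0655, 0.0913, 0.112 and 0.131).

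**Figure D4:**
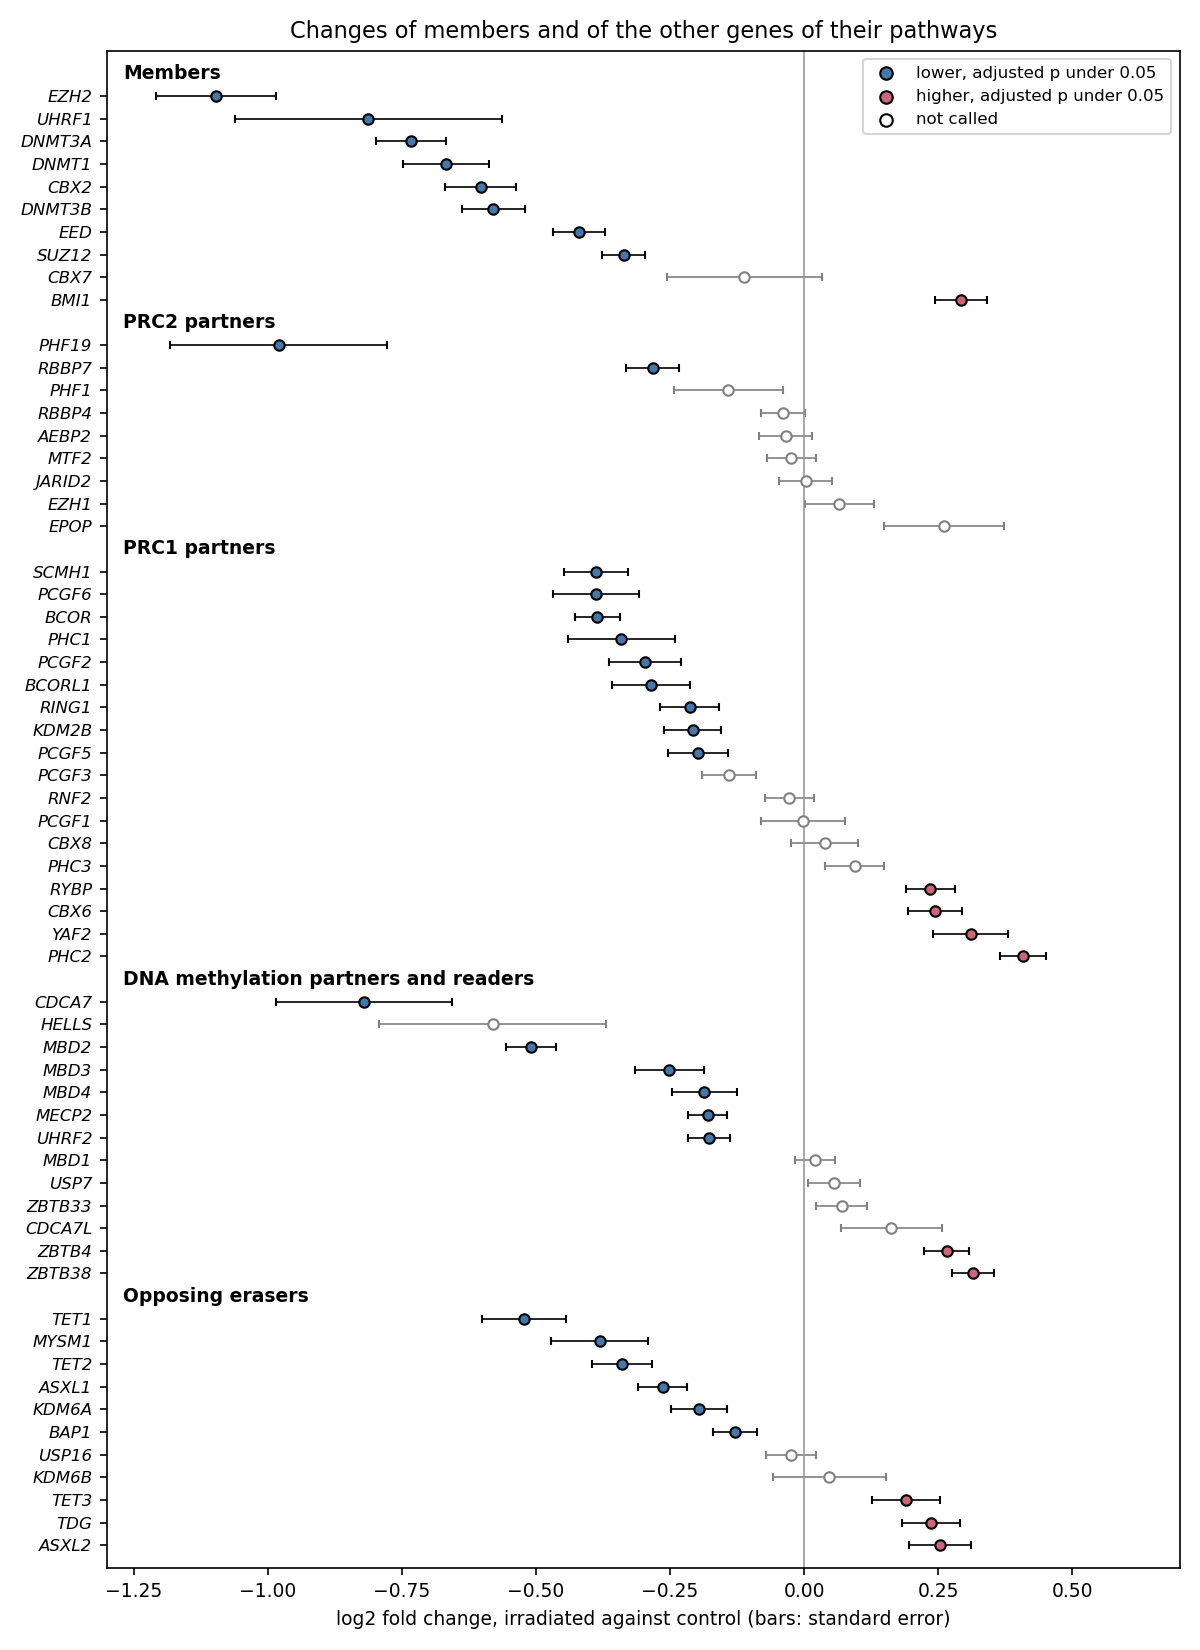
log2 fold change of irradiated against control samples with its standard error (horizontal axis) for the 10 members and the tested genes of 4 lists (18 of the 19 PRC1 partners), with blue for lower, red for higher and open points for genes that did not pass the edgeR test. The members reach from -1.10 for EZH2 to 0.29 for BMI1, and the other genes from -0.98 for PHF19 to 0.41 for PHC2.

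Textbook targets of Polycomb moved in both directions. Of the INK4 pair and 39 HOX genes, 35 were tested, with 4 higher, 21 lower and 10 without a call (median log2 fold change -0.50). The higher share was 11.4% and the lower share 60.0%, where all genes tested had 23.9% and 22.7%. CDKN2B, which encodes the cyclin-dependent kinase inhibitor p15, stood at 22.8, 27.3, 17.6, 23.2 and 25.4 CPM in controls and at 46.8, 45.9, 47.3, 55.6 and 54.8 CPM in irradiated samples (log2 fold change 1.12, SE 0.09, edgeR adjusted p = 8.64e-05). CDKN2A, which encodes p16 and ARF from the same locus, stood at 23.6, 16.7, 21.2, 21.9 and 19.6 CPM in controls and at 39.2, 27.2, 47.7, 37.6 and 34.8 CPM in irradiated samples (log2 fold change 0.84, SE 0.07, edgeR adjusted p = 0.000108). Both INK4 genes were apart between groups, in the same direction as BMI1. Gene counts do not separate p16 from ARF, and 15.3% of the exon bases of CDKN2A lie under an antisense RNA.

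HOX genes, which set regional identity along the body axis, fell in 3 of their 4 clusters. Of the tested genes, 9 of 11 were lower in HOXA (81.8%), 5 of 7 in HOXC (71.4%) and 6 of 7 in HOXD (85.7%), with 0 higher in any of these. HOXB had 2 higher (25.0%), 1 lower (12.5%) and 5 without a call. Over all genes tested, 22.7% were lower and 23.9% higher, the latter near the higher share of HOXB. The largest falls were those of HOXA6 (log2 fold change -1.16, SE 0.10), HOXA4 (-1.12, SE 0.13) and HOXD9 (-1.07, SE 0.09). HOXD9 went from 113.7 ± 14.9 to 54.5 ± 12.0 CPM (mean ± SD, n = 5 per group, edgeR adjusted p = 0.000117). In contrast, HOXB2 rose from 36.6 ± 5.5 to 70.2 ± 12.3 CPM (mean ± SD, n = 5 per group; log2 fold change 0.93, SE 0.15, edgeR adjusted p = 0.0016). Exons of neighbouring transcripts on the opposite strand cover 39.3% of HOXA6 and 16.5% of HOXA4, so their levels can be too low in both groups.

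**Figure D5:**
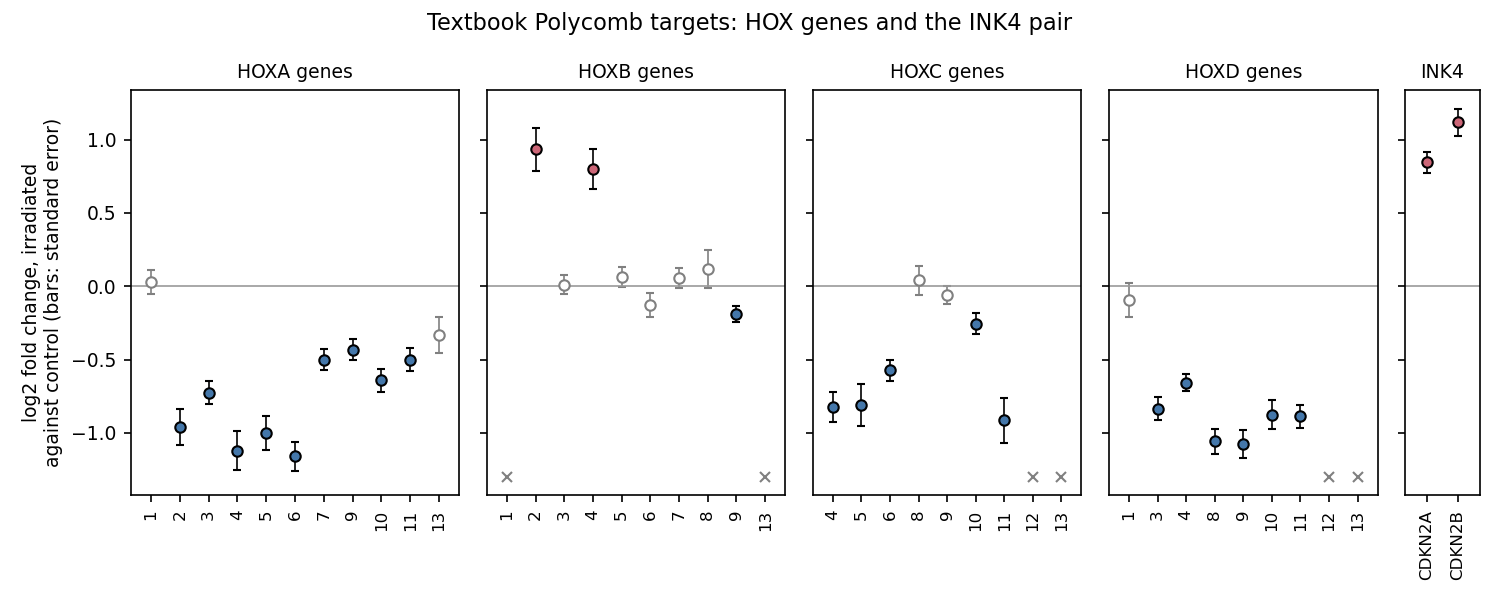
log2 fold change of irradiated against control samples with its standard error (vertical axis) for HOX genes by cluster and paralog number and for the INK4 pair, with blue for lower, red for higher, open points for no call and crosses at the bottom edge for genes below the count filter. HOXA, HOXC and HOXD points lie at or below 0.04, while HOXB2 (0.93), CDKN2A (0.84) and CDKN2B (1.12) are among the 4 genes that rose.

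Germline genes that DNA methylation keeps silent in somatic cells remained near the limit of detection. Of 22 such genes, 20 were below the filter of 200 counts, with between 0 and 145 counts over all 10 samples, and MAEL and SYCP3 were tested. MAEL, a gene of the germline piRNA pathway, had a log2 fold change of -0.94 (SE 0.25, edgeR adjusted p = 0.0163), with levels of 0.416, 0.336, 1.09, 0.232 and 0.311 CPM in controls and between 0.131 and 0.303 CPM in irradiated samples. Control 3 was far above the other controls, the groups overlapped, and the call was lost without the replicate block (edgeR adjusted p = 0.0832). Leaving out replicate 3 brought the log2 fold change of MAEL to -0.61 (edgeR adjusted p = 0.0341). SYCP3, a synaptonemal complex gene, did not pass the test (log2 fold change 0.31, edgeR adjusted p = 0.131).

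For each member the genes with the most similar profile over the 10 samples were found by the root mean square difference of log2 CPM after centring each gene. Nearest to EZH2 were INCENP (0.08), RBL1 (0.10) and NUP210 (0.11), against a spread of the EZH2 profile itself of 0.59 (SD over the 10 samples). UHRF1 lay nearest to GINS4 (0.09), MCM5 (0.11) and CIP2A (0.13), with a profile spread of 0.62. Those nearest to SUZ12 were ABCD3, MSL2 and EIF4A3 (each at 0.03), and to EED they were ODF2, SIMC1 and FERMT2 (0.05 to 0.06). DNMT1 had OXCT1 (0.07) and DIAPH3 (0.08) among its 3 nearest genes, CBX2 had PCNT, ODF2 and SMAD7 (each 0.11), and BMI1 had CILK1, ZNF134 and SEL1L (0.03 to 0.04). DNMT3A was closest to a HOX gene, HOXA3 (0.07), followed by SLC48A1 (0.07) and DPY19L2P3 (0.09). DNMT3B was closest to DSTN, MYLK and TPD52L1 (0.10 to 0.11), and CBX7 to ILRUN-AS1, SGSH and FN3K (each 0.11). No member was among the 3 nearest genes of another member, and all these profiles share the same 10 libraries.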

How the data were processed

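The deposited values are whole-number counts of reads per gene, without normalisation. The authors trimmed reads with Trim-Galore, aligned them to GRCh38 with STAR and counted them per gene during alignment. The annotation release is not given in the sources used here. The labels and the study's methods name different library kits, and use of strand is not stated. Counts were treated as unstranded, so that a read falling in 2 overlapping genes is dropped, because none of the 17 protein-coding genes fully covered by antisense exons had a count (10.7% of 12742 uncovered genes had 0). Coordinates and exon overlaps came from GENCODE on GRCh38.

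The study's filter of 200 counts summed over samples was kept, and genes past it were tested in R 4.3.3 with edgeR 4.0.16 (TMM normalisation, glmQLFit, glmQLFTest) with replicate number as a block, on all 10 samples. Standard errors are the log2 fold change over the square root of the F statistic. Replicate numbers pair the samples by their labels, and the study's model also controls for replicate number. Deviations from group means correlated at 0.22 to 0.51 for each same number and at -0.35 to 0.32 for different numbers. These ranges overlap, since replicate 2 had 0.22, so the correlations alone do not establish every pair. Counts of replicates always differed beyond sampling noise, with a chi-square per gene of 8.50 or more. Replicates 4 and 5 were the most alike in both groups, at 15.1 in controls and 8.50 in irradiated samples. Other pairings of replicates within a group gave 57.1 to 213 in controls and 40.4 to 88.5 in irradiated samples. The tests count replicates 4 and 5 as separate samples. CPM are TMM-normalised, and ratios used a prior count of 2. The edgeR and permutation scripts were tested on simulated data.

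Other genes named are up to 3 per list with the largest change among those called in each direction, close relatives of members, CDKN1A, and the 3 nearest profiles. RYBP, HELLS, SYCP3 and the tubule markers named fall outside this rule and were chosen after their values were seen. Results of some genes under the rule are not reported here. The members and lists were chosen with earlier results of these data known. Alternatives were DESeq2 1.42.0, its size factors in edgeR, limma-voom (limma 3.58.1), upper-quartile and library-size scaling, 2 other filters, no block, each replicate left out, and pairs 2, 4 and 5 alone. Those pairs leave out controls 1 and 3, which were low in proliferation markers. Figures used matplotlib 3.10.9 in Python 3.11.15.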

Additional observations from a re-analysis of the deposited data

Results flagged for a closer look

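In 9 of 100 groups of 5 values, for members, other named genes and ratios, 1 sample lay far from the other 4 by Dixon's criterion, where chance gives about 1 in 20 groups, or 5 of these. Many of these values are related, and only genes past the count filter were checked.

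Among members, CBX2 was low in control 3 at 9.66 CPM (other controls 12.5 to 13.5) and DNMT3A was high in control 1 at 58.1 CPM (others 44.5 to 46.1). Their log2 fold changes were -0.60 and -0.73 with all samples and stayed called lower in each fit that left out 1 replicate. Control 3 was also apart for 5 other genes. It was high for CDKN1A at 207.6 CPM (others 66.7 to 80.9), PCGF2 at 33.5 CPM (others 25.2 to 27.2) and MAEL at 1.09 CPM (others 0.232 to 0.416), and low for TET3 at 29.8 CPM (others 42.8 to 45.0) and CBX8 at 13.5 CPM (others 16.4 to 17.2). HOXA6 was high in control 1 at 27.5 CPM (others 20.3 to 22.1), and HOXB2 was high in irradiated sample 3 at 91.9 CPM (others 62.3 to 67.1). The cause was not tested for any of these values.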

How the results depend on the processing

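Across 14 alternatives, 7 to 8 members were called lower and 1 higher. The fit without the replicate block, in which the pairing is ignored, gave 8 lower and 1 higher member and changed no call of a member. Over all genes it called 3640 higher and 3366 lower, against 4550 and 4307 with it, and scaling by library size alone made 38.0% of calls higher, against 51.4%. For PRC2 partners, 1 was higher in pairs 2, 4 and 5 alone. Of PRC1 partners, 5 to 9 were lower with a replicate left out. Of germline genes, 2 were higher with a minimum of 1 count, and 0 were lower without the block or in pairs 2, 4 and 5 alone. In those pairs MAEL was below the count filter and was not tested, so no call was lost by a test there. Genes whose direction turned had no call with all samples. CBX7 ran from -0.26 to 0.0085 with a replicate left out and was 0.094 in pairs 2, 4 and 5, and CBX8 ran from -0.0061 to 0.083 (-0.038 by library size and -0.026 in pairs 2, 4 and 5). EZH1 was -0.011 by library size and was called higher in pairs 2, 4 and 5 alone (0.15). The cause was not tested.

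The ratios of EZH2 to EZH1, EZH2 to SUZ12 and BMI1 to PCGF2 kept their direction. Some designs cannot pass the threshold, since exact sign flips within pairs reach p = 0.0625 at best and exact permutation of 3 against 3 samples 0.1. For 4 against 4 samples the smallest exact permutation p is 0.0286 before adjustment, and whether it passes depends on the other ratios. With sign flips within the replicate block the differences stayed -1.16, -0.76 and 0.59 (adjusted p = 0.125 each). With 1 replicate left out they ranged from -1.28 to -1.04, from -0.84 to -0.67 and from 0.54 to 0.66 (adjusted p = 0.0571 each), and in pairs 2, 4 and 5 they were -1.48, -0.95 and 0.49 (adjusted p = 0.12 each). DNMT3B to DNMT3A turned to -0.0046 in those pairs (exact permutation p = 1.0). Precision is set by the spread between replicates at these depths, except for genes near 200 counts.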
